A study of Coryphaena hippurus with 27 samples.

Results

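The miR-181 family was followed through the early development of mahi-mahi (Coryphaena hippurus), a fast-growing open-ocean fish, with and without crude oil from the Deepwater Horizon spill. Its members are the names of the deposited count tables that read miR-181 with any letter and arm, which gave 20 of the 1449 names listed in the 6 tables together. All 20 stood in every table. Of these, 10 were names of the 3p arm, 4 were names of the 5p arm and 6 carried a letter but no arm. The family was chosen by the measured differences of miR-181a-3p between slick oil, source oil and control, so all values of 3p names against control and between oils are given as a description without a test. Names outside the 3p arm were tested together with all other miRNA names.

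Whole embryos or larvae were sampled at 24, 48 and 96 hours post fertilisation (hpf). Exposed animals were held in seawater with a high-energy water accommodated fraction (HEWAF, oil blended into water) of slick oil or of source oil, names used in work on this spill for oil skimmed from the sea surface and oil from the well. The labels give 1 g/l as the concentration for both oils, and 0 g/l with no agent for controls. Exposure began with freshly fertilised embryos and the water was not renewed. Each of the 9 groups had 3 libraries, each made from pooled animals of wild-caught broodstock. The labels do not say whether the pools of a group came from separate spawns, so p-values at most measure the spread between pools, which may be technical. Where pools differed by less than counting error, edgeR's p-value was kept no lower than counting error alone gives. Such a p-value does not measure the spread between pools, and it takes the counts to be independent reads.

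MicroRNAs are short RNAs that pair with messenger RNAs and lower their output. A hairpin precursor is cut into a duplex with a 5p and a 3p strand. Usually 1 strand of the duplex is kept in the Argonaute protein and the other is degraded. In mammals the 5p strand of miR-181 is the main product, and miR-181a is known for tuning antigen receptor signalling in developing lymphocytes. In fish, miR-181a and miR-181b are known from the retina, where work in medaka linked them to neurite growth. Mature 3p strands of miR-181 come from several precursor copies that differ in sequence, which is why names such as miR-181a-1-3p and miR-181a-2-3p exist.

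Small RNA counts per miRNA name summed to between 51925 and 93055 per library. At 96 hpf totals were 89482 to 93055 under slick oil and 86977 to 90152 under source oil, against 63162 to 75228 in controls. Levels are given as normalised counts per 70000 counts, with SD over 3 libraries, and fold changes as log2 values with their SE. The SE was worked back from the test, as the absolute log2 fold change over the square root of edgeR's F statistic. Where libraries differed by less than counting error, this SE can be smaller than counting error and need not match the p-value. That holds for the untested 3p names too. Whole animals were checked by miRNAs of known tissues. The muscle miRNA miR-206 had 447 to 717 counts, the neural miR-9-5p 322 to 771 and the liver miRNA miR-122-5p 90 to 314, so all 3 were found in each library. In 19 of 27 replicate pairs counts differed by less than sampling noise (chi-square per degree of freedom below 1, with a lowest value of 0.479). The sources used here do not state whether the counts are reads or distinct sequences. Levels and ratios below are therefore of counts as deposited. In 7 pairs counts differed beyond sampling noise, so a repeat with the closest pair of libraries averaged was run. In bulk RNA of whole animals, fewer cells of a type and less RNA per cell cannot be told apart.

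Several names of the family carry nearly the same counts and are not independent measurements. miR-181d and miR-181d-5p were equal in 27 of 27 libraries. miR-181a and miR-181a-5p differed by at most 4.23% in any library. miR-181b, miR-181b-5p, miR-181c-5p and miR-181e lay within 4.17% of each other. On the 3p side miR-181a-2-3p and miR-181a-5-3p lay within 1.5%. miR-181c differed from miR-181c-5p by up to 50.3% of the higher count, and miR-181a-1-3p from miR-181a-3p by up to 29.3%, so these are not near-equal. Pearson's r of log2 scaled counts over 27 libraries was 0.905 for the first pair and 0.803 for the second. Whether the names of a pair share part of their counts was not tested. Levels are therefore not summed over the family, and tallies of names below take near-copies as separate names.

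For the letters a, b and c, where both arms were named, the 5p name had a higher mean count over all 27 libraries than each 3p name of its letter. Under slick oil at 24 hpf alone this did not hold within letter a. There miR-181a-2-3p (250 ± 27.3) and miR-181a-5-3p (251 ± 28.6 normalised counts) averaged above miR-181a-5p (241 ± 24.1), with overlap. miR-181a-5p had the highest mean in the family with 313 counts per library, rank 33 of 990 names. miR-181b-5p averaged 279 counts, miR-181c-5p 274 and miR-181c 196. The highest 3p names were miR-181a-5-3p with 199 and miR-181a-2-3p with 198 counts. miR-181a-3p averaged 101 counts, miR-181a-1-3p 85.7 and miR-181b-3p 47.9. Low names were miR-181d with 19.1, miR-181f with 10.6, miR-181b-2-3p with 8.67 and miR-181a-4-3p with 5.33 counts. miR-181c-3p, miR-181a-3-3p and miR-181b-1-3p never exceeded 4 counts in any library, and no fold is given for them. These levels are not per length, but mature miRNAs are of nearly equal length.

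**Figure D1:**
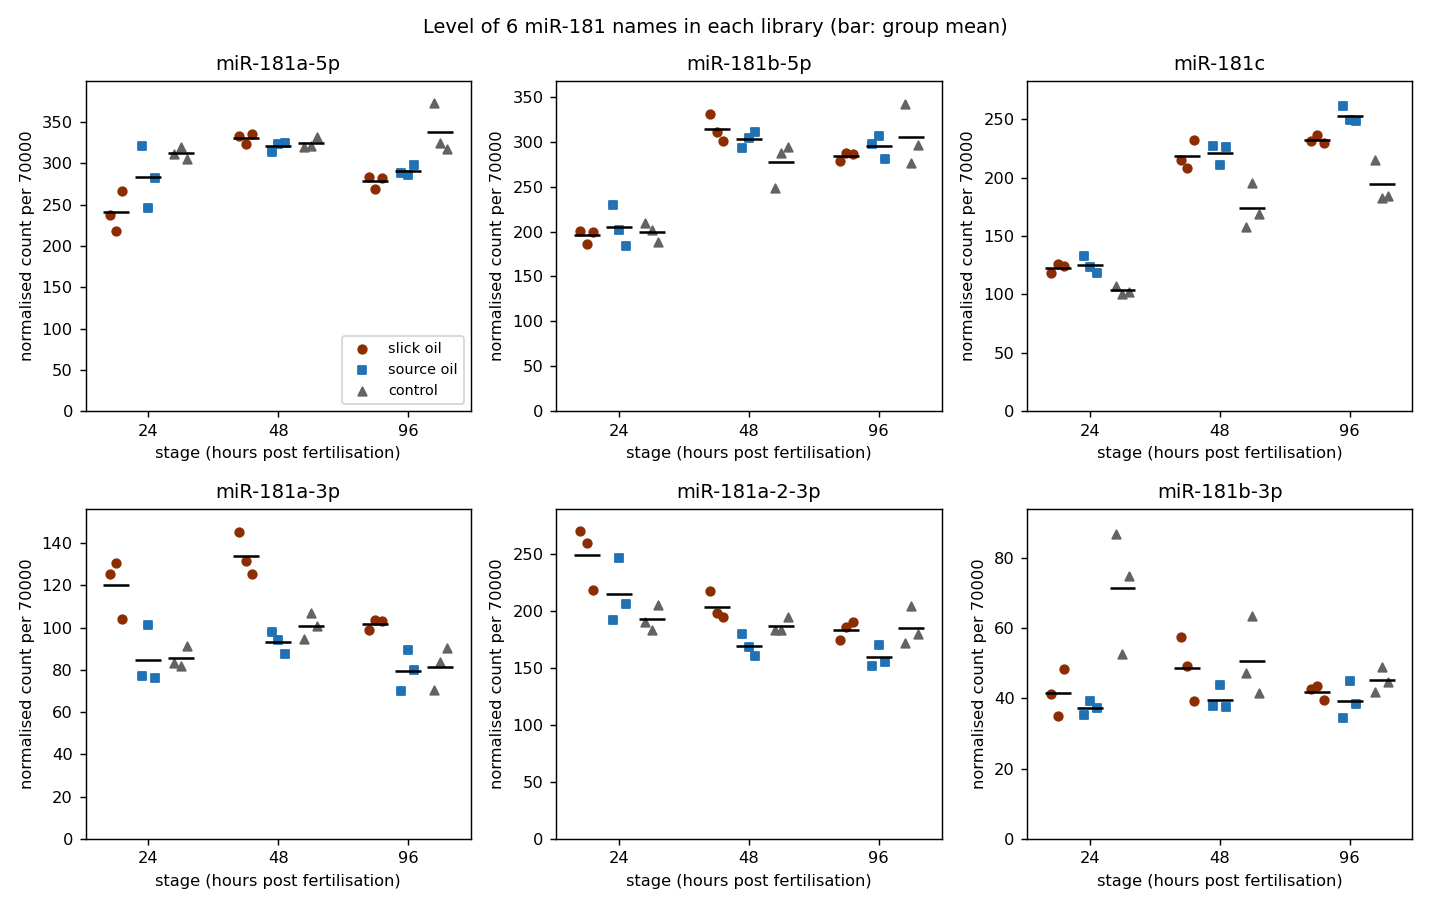
Normalised count per 70000 counts (vertical axes, from 0) of 6 miR-181 names at 24, 48 and 96 hpf, with 1 point per library, slick oil (brown circles), source oil (blue squares) and control (grey triangles), and black bars for group means. The slick-oil libraries of miR-181a-3p lie above the source-oil libraries at each stage, while miR-181c is higher in both oils than in controls at 48 and 96 hpf.

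In untreated animals miR-181b-5p, miR-181c, miR-181c-5p, miR-181d, miR-181d-5p and miR-181e were higher at 48 than at 24 hpf, while miR-181a, miR-181a-5p and miR-181f did not pass the test. Of 9 names outside the 3p arm that passed the filter on low counts, 6 were called higher and 0 lower at 48 hpf. Of all names, edgeR's quasi-likelihood test called 45.3% in either direction in that comparison and 23.3% higher. Groups without overlap made up 51.4% of all names. miR-181c stood at 157, 195 and 169 normalised counts in the 48 hpf controls, against 107, 101 and 102 at 24 hpf. For miR-181c the groups did not overlap, and the log2 fold change was 0.78 ± 0.10 (edgeR adjusted p = 7.36e-07). miR-181b-5p had 249, 288 and 295 normalised counts in controls at 48 hpf and 209, 202 and 188 at 24 hpf, again without overlap (0.50 ± 0.09, edgeR adjusted p = 7.04e-05). miR-181c-5p (0.51 ± 0.09) and miR-181e (0.52 ± 0.09), whose counts are nearly equal to those of miR-181b-5p, rose by similar amounts.

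miR-181d, a low member, averaged 17.2 ± 3.72 normalised counts in controls at 48 hpf and 8.43 ± 0.874 at 24 hpf (1.08 ± 0.27, edgeR adjusted p = 0.00387; DESeq2 adjusted p = 0.0623). miR-181a-5p averaged 324 ± 6.70 at 48 hpf and 312 ± 7.47 at 24 hpf (0.09 ± 0.07, edgeR adjusted p = 0.326). Removing the trend of fold change with abundance by cyclic loess brought miR-181a-5p past the threshold (0.17, adjusted p = 0.0196). Between 48 and 96 hpf 0 of 9 names passed in controls, where 58.7% of all names were called, 29.6% higher and 29.1% lower. Of these 9, 0 had an unadjusted p below 0.05 and 0 passed with DESeq2. Without control replicate 5, miR-181c passed (0.27, adjusted p = 0.0160), and without control replicate 8, miR-181b-5p passed (0.22, adjusted p = 0.0394). Among 3p names, which are described without a test here too, miR-181a-3p averaged 85.4 ± 5.11, 101 ± 6.13 and 81.5 ± 10.3 in controls at 24, 48 and 96 hpf. miR-181b-3p averaged 71.5 ± 17.5, 50.8 ± 11.3 and 45.2 ± 3.57 over the same stages.

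The level of miR-181a-5p, the most abundant member, fell under slick oil at 24 and 96 hpf and under source oil at 96 hpf. At 24 hpf it had 238, 218 and 266 normalised counts under slick oil, 321, 246 and 283 under source oil and 311, 320 and 305 in controls. All slick-oil libraries lay below all controls (groups did not overlap for 52.6% of all names), while source-oil libraries overlapped both. The log2 fold change was -0.36 ± 0.07 for slick oil against control (edgeR adjusted p = 0.00371) and -0.11 ± 0.08 for source oil against control (edgeR adjusted p = 0.344). Its near-copy miR-181a gave -0.35 ± 0.07 under slick oil with the same adjusted p of 0.00371 by edgeR.

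For slick oil at 24 hpf these 2 names were the only ones called among 7 tested outside the 3p arm, beside 38.6% of all names called and 17.4% called lower. For source oil at 24 hpf edgeR called 0 of 7, beside 26.3% of all names called. In that comparison 1 of the 7 had an unadjusted p below 0.05 and DESeq2 called 0. With the closest pair of libraries averaged, a choice added after the data were seen, the fall under slick oil missed the threshold (miR-181a-5p -0.31, adjusted p = 0.0558).

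At 48 hpf miR-181a-5p had 333, 324 and 336 normalised counts under slick oil, 314, 323 and 325 under source oil and 320, 321 and 332 in controls. The fold changes were 0.04 ± 0.05 under slick oil (edgeR adjusted p = 0.619) and 0.00 ± 0.06 under source oil (edgeR adjusted p = 0.979). At 96 hpf it had 284, 269 and 283 under slick oil, 288, 286 and 298 under source oil and 373, 325 and 317 in controls. Both oil groups lay below all controls, where 66.0% of all names under slick oil and 61.3% under source oil had groups without overlap. The change was -0.26 ± 0.06 under slick oil (edgeR adjusted p = 0.000476) and -0.19 ± 0.06 under source oil (edgeR adjusted p = 0.00882). With cyclic loess both calls were lost (-0.06, adjusted p = 0.459 for slick oil and -0.003, adjusted p = 0.973 for source oil). Without control replicate 7, which had the highest level of the 3, the source-oil change was -0.13 (adjusted p = 0.126).

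The effect of slick oil on miR-181a-5p differed between stages when all stages were fitted together. Relative to 24 hpf, the log2 effect of slick oil differed by 0.46 at 48 hpf and by -0.01 at 96 hpf (edgeR adjusted p = 0.000411 over both terms). For miR-181a the same test gave 0.49 and -0.03 (edgeR adjusted p = 0.000172). Both calls held in all 27 alternatives run, with adjusted p-values up to 0.0381. In this fit 41.4% of all names were called.

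miR-181c rose under both oils at 48 and 96 hpf, and these 4 calls held in each alternative run. At 24 hpf miR-181c had 118, 126.2 and 124.1 normalised counts under slick oil, 132.6, 123.5 and 119 under source oil and 107, 101 and 102 in controls. The oil libraries lay above the controls without overlap. A lack of overlap in either direction held for 52.6% of all names under slick oil and 43.5% under source oil. The changes of 0.26 ± 0.09 under slick oil (edgeR adjusted p = 0.0573) and 0.29 ± 0.11 under source oil (edgeR adjusted p = 0.0532) missed the threshold. Without slick replicate 1 the slick-oil change was called (0.32, adjusted p = 0.0419). Both comparisons of a stage share the same control libraries and are not independent.

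At 48 hpf miR-181c had 215, 208 and 232 normalised counts under slick oil, 227, 211.1 and 226 under source oil and 157, 195 and 169 in controls. It rose by 0.34 ± 0.06 under slick oil (edgeR adjusted p = 2.95e-04; up to 0.0282 over 16 alternatives) and by 0.37 ± 0.07 under source oil (edgeR adjusted p = 3.44e-04; up to 0.0155 over 16 alternatives). At 96 hpf it had 231, 236 and 230 under slick oil, 261, 250 and 249 under source oil and 215, 182.9 and 185 in controls. The rise was 0.28 ± 0.07 under slick oil (edgeR adjusted p = 8.85e-04; up to 0.0490, in the authors' deposited table) and 0.41 ± 0.07 under source oil (edgeR adjusted p = 5.19e-07; up to 0.00324 over 15 alternatives). At both stages all oil libraries lay above all controls, and at 48 hpf 55.5% of all names under slick oil had groups without overlap, as had 38.6% with source oil.

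At 96 hpf miR-181c-5p was not called where miR-181c was. It averaged 282 ± 2.53 under slick oil, 290 ± 10.5 under source oil and 301 ± 33.2 in controls at that stage, and passed in neither oil (edgeR adjusted p = 0.306 and 0.769). The ratio of the miR-181c count to the miR-181c-5p count, written as a percent, was 64.5% ± 4.81, 71.8% ± 6.86 and 82.5% ± 1.16 under slick oil at 24, 48 and 96 hpf. Under source oil the ratio was 63.3% ± 3.41, 74.4% ± 3.99 and 87.3% ± 3.61, and in controls 52.6% ± 3.16, 63.0% ± 5.57 and 64.6% ± 1.52. The oil libraries lay above the controls of their stage except under slick oil at 48 hpf, where the lowest was 67.4% and the highest control 68.1%. This ratio was not tested, and with 3 libraries against 3 an exact permutation test cannot go below 0.10. No share was taken over other ratios of this kind. Of the 111 pairs of 5p and 3p names described below, 35.1%, 43.2% and 55.9% had no overlap between slick oil and control at 24, 48 and 96 hpf. For source oil and control it was 24.3%, 32.4% and 50.5%.

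The b, d, e and f names and miR-181c-5p were tested beside these. At 48 hpf slick oil raised 5 of 10 tested names and lowered 0, beside 40.8% of all names called and 19.5% called higher. Source oil raised 1 of 10 and lowered 0, beside 19.4% called and 9.22% called higher. The 5 were miR-181c and the group of miR-181b, miR-181b-5p, miR-181c-5p and miR-181e. miR-181b-5p had 331, 311 and 301 normalised counts under slick oil, against 249, 288 and 295 in controls. Its lowest slick-oil library stood just above the highest control, with a rise of 0.20 ± 0.05 (edgeR adjusted p = 0.00970). The fold was similar but not called with DESeq2 (0.19, adjusted p = 0.0830) and in the authors' deposited table (0.21, adjusted p = 0.0660). It was smaller and not called with cyclic loess (0.13, adjusted p = 0.123), without control replicate 4 (0.11, adjusted p = 0.261) and without slick replicate 4 (0.16, adjusted p = 0.130). Under source oil miR-181b-5p had 293, 304 and 311 normalised counts at 48 hpf and missed the threshold (0.15 ± 0.07, edgeR adjusted p = 0.109); without control replicate 6 it passed (0.19, adjusted p = 0.0468).

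At 96 hpf slick oil raised 1 and lowered 2 of 10 tested names, beside 60.1% of all names called, 32.5% higher and 27.6% lower. Source oil raised 3 and lowered 2 of 10 at that stage, beside 48.0% called, 28.3% higher and 19.7% lower. miR-181d, with its identical copy miR-181d-5p, made up the other rises: it had 22.8, 30.8 and 27.6 normalised counts under source oil, against 22.7, 16.4 and 18.1 in controls (0.54 ± 0.21, edgeR adjusted p = 0.0461). The lowest source-oil library and the highest control nearly touched, and only 4 of 14 alternatives kept the call. Under slick oil miR-181d averaged 25.7 ± 3.41 against 19.0 ± 3.27 in controls (0.45 ± 0.22, edgeR adjusted p = 0.0876). miR-181f, which passed the filter in the comparisons at 48 and 96 hpf and between control stages, was called in none of them and stood between 8 and 16 counts at 48 and 96 hpf.

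**Figure D2:**
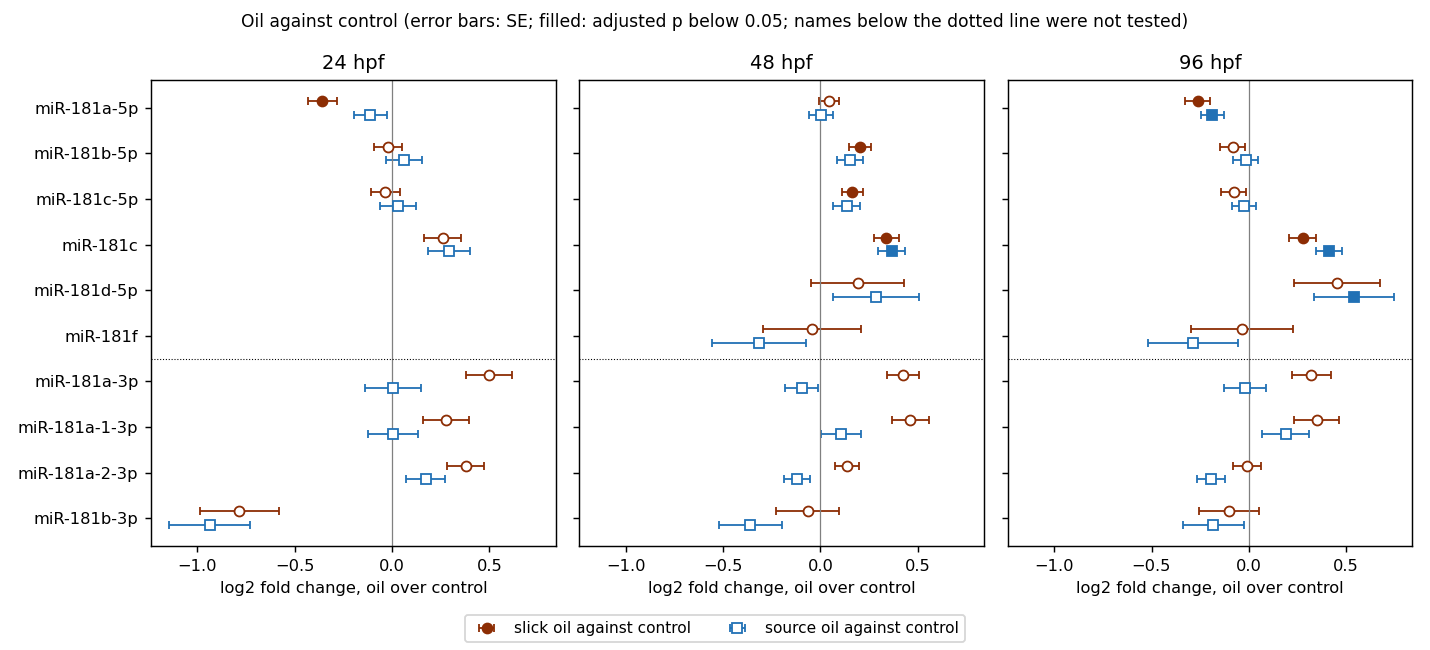
Log2 fold change of slick oil (brown circles) and source oil (blue squares) over control with SE (horizontal axes) for 10 names at 24, 48 and 96 hpf; filled symbols have an edgeR adjusted p below 0.05, and 3p names stand below the dotted line and were not tested. miR-181c lies right of 0 in both oils at all stages, and miR-181a-3p lies right of 0 under slick oil and near 0 under source oil.

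Of the 3p arm, miR-181a-3p stood above controls under slick oil and overlapped them under source oil at each stage. These values chose the family and are a description. At 24 hpf miR-181a-3p had 125, 131 and 104 normalised counts under slick oil, 77.0, 101 and 76.0 under source oil and 83.3, 81.8 and 91.3 in controls. Each slick-oil library lay above all source-oil and control libraries, and source oil and control overlapped. The log2 fold change was 0.50 ± 0.12 for slick oil and 0.00 ± 0.14 for source oil, each against control.

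At 48 hpf miR-181a-3p had 145.1, 132 and 125 normalised counts under slick oil, 97.9, 94.1 and 87.6 under source oil and 94.8, 107 and 101 in controls. Slick-oil libraries again lay above both other groups, with 0.42 ± 0.08 against control, while source oil gave -0.10 ± 0.08. At 96 hpf it had 99.1, 104 and 103 under slick oil, 69.8, 89.2 and 79.8 under source oil and 70.3, 83.8 and 90.4 in controls. Groups were set apart in the same way, with 0.32 ± 0.10 for slick oil and -0.02 ± 0.11 for source oil. Slick oil and control did not overlap for 52.6%, 55.5% and 66.0% of all names at 24, 48 and 96 hpf. In the authors' deposited table the log2 fold change of slick oil was 0.47, 0.40 and 0.27 at the 3 stages.

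The companion miR-181a-1-3p gave 0.28 ± 0.12, 0.46 ± 0.10 and 0.35 ± 0.11 for slick oil against control at 24, 48 and 96 hpf. Under source oil it gave 0.01 ± 0.13, 0.11 ± 0.10 and 0.19 ± 0.12. The pair miR-181a-2-3p and miR-181a-5-3p behaved otherwise with stage. miR-181a-2-3p averaged 250 ± 27.3 normalised counts under slick oil at 24 hpf, 215 ± 28.5 under source oil and 193 ± 11.2 in controls. By 96 hpf it averaged 183.6 ± 8.40 under slick oil, 160 ± 9.76 under source oil and 186 ± 16.7 in controls. Its log2 fold change against control was 0.38 ± 0.10, 0.14 ± 0.06 and -0.01 ± 0.07 for slick oil and 0.17 ± 0.10, -0.12 ± 0.07 and -0.20 ± 0.07 for source oil over the 3 stages.

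miR-181b-3p differed in direction from the a names at 24 hpf. It had 41.4, 35.1 and 48.4 normalised counts under slick oil, 35.4, 39.3 and 37.3 under source oil and 87.0, 52.6 and 75.0 in controls. Both oil groups lay below all controls, at -0.79 ± 0.20 for slick oil and -0.94 ± 0.21 for source oil. At that stage 52.6% of all names under slick oil and 43.5% under source oil had groups without overlap. At 48 hpf the values were -0.07 ± 0.16 and -0.36 ± 0.16 for slick and source oil, and at 96 hpf -0.10 ± 0.16 and -0.18 ± 0.16, with overlap of groups. miR-181b-2-3p passed the filter at 48 hpf alone, at -0.29 ± 0.25 for slick oil and -0.43 ± 0.24 for source oil against control. miR-181a-4-3p stayed at 0 to 10 counts in all libraries.

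Between slick and source oil no name outside the 3p arm was called by edgeR at the 3 stages: 0 of 6 at 24 hpf, 0 of 10 at 48 hpf and 0 of 10 at 96 hpf, where 1.16%, 5.49% and 4.33% of all names were called (4.87% and 1.94% higher at 48 and 96 hpf). At an unadjusted p below 0.05 there were 2, 0 and 0 such names, and DESeq2 called 0 at each stage. At 24 hpf miR-181a-5p averaged 241 ± 24.1 normalised counts under slick oil and 283 ± 37.6 under source oil (-0.25 ± 0.09, edgeR adjusted p = 0.289), with overlap between oils. Its difference was 0.05 ± 0.05 at 48 hpf (edgeR adjusted p = 0.739) and -0.05 ± 0.06 at 96 hpf (edgeR adjusted p = 0.766). miR-181c, which rose under both oils, differed between them by -0.04 ± 0.10, -0.01 ± 0.06 and -0.11 ± 0.06 at the 3 stages and passed at none (edgeR adjusted p = 0.913, 0.969 and 0.407), although all slick-oil libraries lay below all source-oil libraries at 96 hpf.

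For 3p names the same contrast belongs to what chose the family. miR-181a-3p was higher under slick than under source oil by 0.49 ± 0.14 at 24 hpf, 0.53 ± 0.08 at 48 hpf and 0.37 ± 0.10 at 96 hpf, and the oils did not overlap at any stage. Values above 0 were found for 5 of 5, 6 of 6 and 5 of 5 of the 3p names that passed the filter. Their medians were 0.20, 0.29 and 0.22, beside medians of 0.02, -0.01 and 0.01 over all names. Oil groups did not overlap for 2 of 5, 4 of 6 and 4 of 5 of them, beside 18.2%, 32.8% and 23.2% of all names. Names that passed a filter are not all members, and these near-copies are read as a description. miR-181b-3p differed by 0.15 ± 0.23, 0.31 ± 0.17 and 0.11 ± 0.15 and its oils overlapped at each stage, as they did for miR-181b-2-3p at 48 hpf (0.15 ± 0.28).

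**Figure D3:**
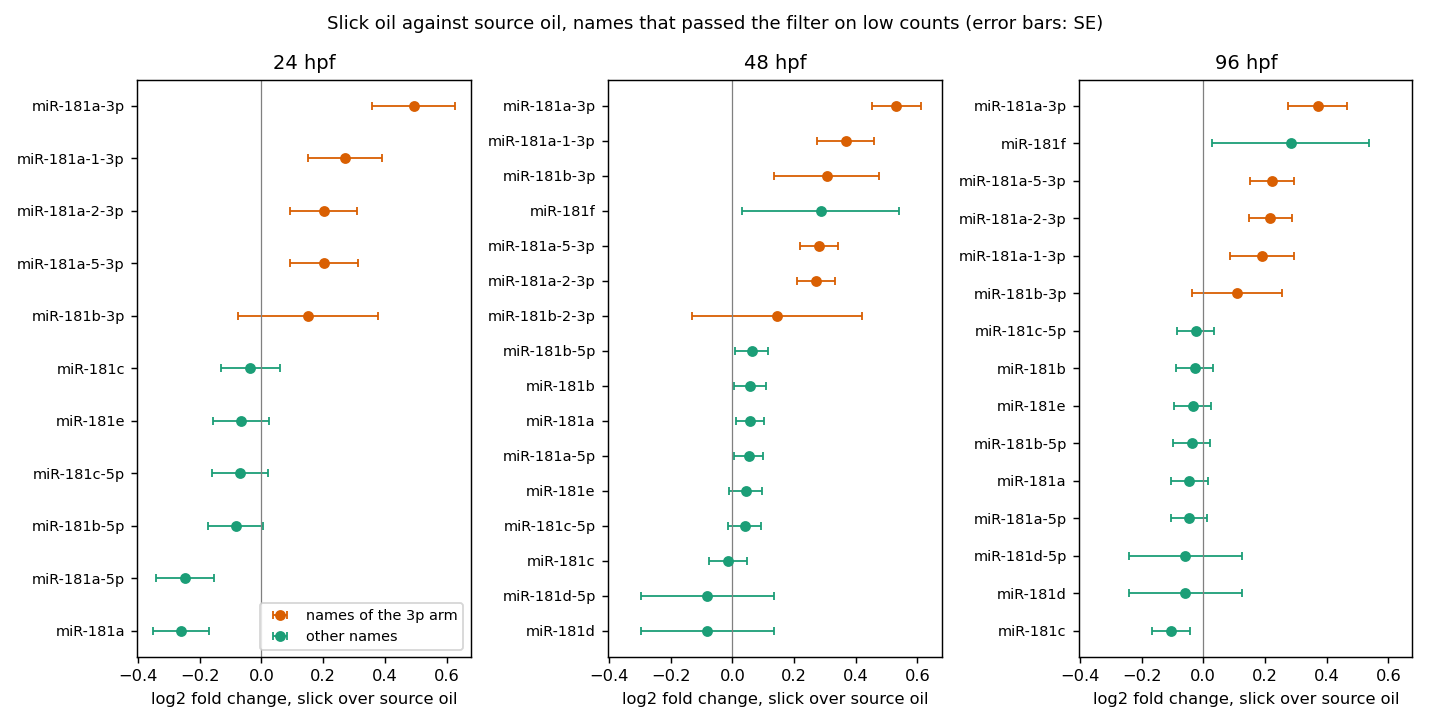
Log2 fold change of slick over source oil with SE (horizontal axes) for each miR-181 name that passed the filter on low counts at 24, 48 and 96 hpf, sorted by value, with 3p names in orange and other names in green. miR-181a-3p heads each panel, at 0.49, 0.53 and 0.37, and the names outside the 3p arm lie around 0 apart from miR-181a and miR-181a-5p at 24 hpf and miR-181f.

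The balance of the arms was read within each library as the log2 ratio of the 5p to the 3p count, with 0.5 added to each, which needs no scaling between libraries. For the pair miR-181a-5p and miR-181a-3p it was 0.92, 0.74 and 1.35 under slick oil at 24 hpf, 2.05, 1.28 and 1.89 under source oil and 1.90, 1.96 and 1.74 in controls. The slick-oil libraries lay below all controls, and 1 source-oil library fell among them. On average there were 2.003 counts of miR-181a-5p per count of miR-181a-3p under slick oil, 3.33 under source oil and 3.64 in controls. At 48 hpf the log2 ratio was 1.30 ± 0.11 under slick oil, 1.78 ± 0.10 under source oil and 1.68 ± 0.09 in controls. At 96 hpf it was 1.45 ± 0.07, 1.87 ± 0.18 and 2.05 ± 0.31 in the same groups.

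For the ratio of miR-181a-5p to miR-181a-3p, slick oil less control was -0.86, -0.38 and -0.60 at 24, 48 and 96 hpf, without overlap at any stage. Among 111 pairs of names with both arms at a mean of at least 10 counts, groups did not overlap in 35.1%, 43.2% and 55.9% at those stages, and this pair held rank 6, 34 and 32 from the lowest. Slick oil less source oil was -0.73, -0.48 and -0.42, with ranks 2, 5 and 7 of 111. These oils overlapped at 24 hpf and not at 48 and 96 hpf, where 19.8% and 18.9% of the pairs did not overlap. Source oil less control was -0.13, 0.10 and -0.18, with overlap at each stage. As the 3p counts chose the family, these differences carry no test.

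The b pair ran the other way at 24 hpf. The log2 ratio of miR-181b-5p to miR-181b-3p was 2.26, 2.39 and 2.03 under slick oil, 2.68, 2.34 and 2.28 under source oil and 1.26, 1.93 and 1.32 in controls at that stage. Oil libraries lay above all controls, by 0.73 for slick oil and 0.93 for source oil on average, where 35.1% and 24.3% of the 111 pairs did not overlap. In controls the ratio was 1.504 ± 0.37, 2.46 ± 0.32 and 2.74 ± 0.26 at 24, 48 and 96 hpf, and the 48 hpf libraries lay above those of 24 hpf by 0.95 on average without overlap, as 43.2% of the pairs had none. At 48 and 96 hpf the oil groups overlapped the controls. The c pair rests on 0 to 4 counts of miR-181c-3p per library and is not read.

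**Figure D4:**
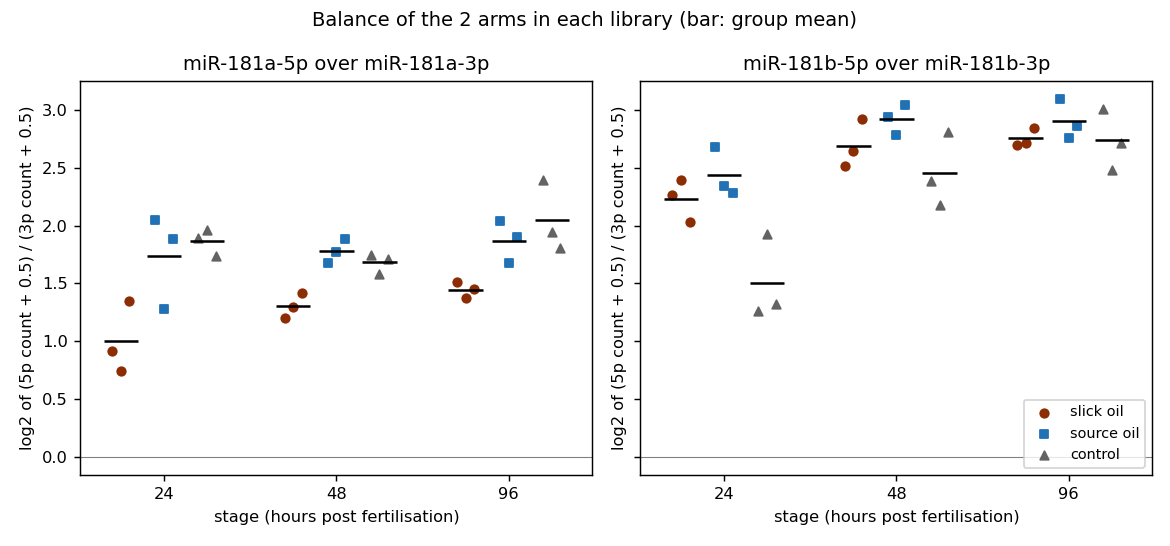
Log2 ratio of 5p to 3p counts in each library (vertical axis, 0 marks equal counts) for miR-181a-5p over miR-181a-3p (left) and miR-181b-5p over miR-181b-3p (right) at 24, 48 and 96 hpf, with slick oil (brown circles), source oil (blue squares), control (grey triangles) and black bars for group means. The slick-oil libraries of the left pair lie below the controls at each stage, and the oil libraries of the right pair lie above the controls at 24 hpf.

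Over the 9 groups miR-181a-3p was highest under slick oil at 48 hpf (134 ± 10.1 normalised counts) and 24 hpf (120 ± 14.0), whose libraries overlapped. Next came slick oil at 96 hpf (102 ± 2.44), control at 48 hpf (101 ± 6.13) and source oil at 48 hpf (93.2 ± 5.20). The lowest were control at 24 hpf (85.4 ± 5.11), source oil at 24 hpf (84.7 ± 14.2), control at 96 hpf (81.5 ± 10.3) and source oil at 96 hpf (79.6 ± 9.71). The only neighbours in this order without overlap were slick oil at 24 hpf and slick oil at 96 hpf. miR-181a-5p gave another order, headed by control at 96 hpf (338 ± 30.3) and closed by slick oil at 96 hpf (279 ± 7.99) and slick oil at 24 hpf (241 ± 24.1), which did not overlap. For miR-181c the top was source oil at 96 hpf (253 ± 7.08), then slick oil at 96 hpf (233 ± 3.27), and the lowest was control at 24 hpf (103 ± 3.55).

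Over all 27 libraries the arms of miR-181a did not move together. Pearson's r of log2 scaled counts was -0.30 between miR-181a-5p and miR-181a-3p and 0.80 between miR-181a-1-3p and miR-181a-3p. With miR-181a-1-3p, miR-181a-2-3p and miR-181a-5-3p, the r of miR-181a-5p was -0.29, -0.60 and -0.60. miR-181a-3p had an r of 0.03 with miR-181b-5p, while miR-181c and miR-181d were close to each other (0.93). Outside the family, the names closest to miR-181a-3p among 628 candidates were miR-184b (0.72), miR-25-5p (0.72), miR-92c (0.71), miR-125a-2-3p (0.69) and miR-130b-5p (0.65). Those closest to miR-181a-5p were miR-153a (0.76), miR-9b-5p (0.72), miR-144-5p (0.71), miR-216a (0.66) and let-7a-5p (0.63). Libraries share stage, treatment and depth, so these correlations are a description.

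MicroRNAs of tissues in which miR-181 is known were set beside these values. The retina and sensory organ list (miR-183, miR-96, miR-182, miR-204, miR-211 and miR-184) had 13 of 21 tested names higher and 0 lower under slick oil at 24 hpf, 11 of 20 higher and 2 lower at 48 hpf, and 9 of 22 higher and 5 lower at 96 hpf. Of all names, 21.3%, 19.5% and 32.5% were higher and 17.4%, 21.3% and 27.6% lower under slick oil at these stages. Under source oil it had 11 of 20 higher and 0 lower at 24 hpf, 3 of 21 higher and 2 lower at 48 hpf, and 8 of 21 higher and 3 lower at 96 hpf, beside 14.2%, 9.22% and 28.3% of all names higher and 12.2%, 10.1% and 19.7% lower. Slick against source oil gave 5 of 20, 6 of 19 and 5 of 18 higher, and 0 lower, at the 3 stages, beside 1.16%, 4.87% and 1.94% of all names higher. List medians were 0.25, 0.18 and 0.13, beside 0.02, -0.01 and 0.01 over all names. The most abundant name of the list, miR-183, was not called between oils. Its change was 0.07, 0.12 and -0.05 at the 3 stages (edgeR adjusted p = 0.788, 0.247 and 0.684). Summed over the list, levels were 4037 to 4935 under slick oil, 3431 to 4321 under source oil and 3072 to 3294 in controls at 24 hpf. They were 3653 to 3866, 3131 to 3215 and 2911 to 3192 at 48 hpf, and 3417 to 3845, 3447 to 3510 and 3587 to 3914 at 96 hpf.

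The neuron list (miR-124, miR-137, miR-9 and miR-128) had 1 of 46 names higher and 14 lower under slick oil at 24 hpf, 3 of 52 and 15 at 48 hpf, and 6 of 55 and 23 at 96 hpf. Under source oil it had 1 of 45 higher and 15 lower at 24 hpf, 3 of 55 and 3 at 48 hpf, and 3 of 55 and 18 at 96 hpf. Its summed level at 96 hpf was 7316 to 7422 under slick oil and 7555 to 7851 under source oil, against 9037 to 9750 in controls. At 24 hpf it was 5322 to 6041 under slick oil and 5528 to 5947 under source oil, against 6098 to 6707 in controls. The white blood cell list had 0 names higher and 4 of 12 lower under slick oil and 0 higher and 4 of 10 lower under source oil at 24 hpf, and the vessel list 0 higher and 5 of 25 lower under slick oil and 0 of 25 in either direction under source oil. At 48 hpf each oil had 1 name higher and 4 of 10 lower in the white blood cell list and 1 higher and 5 of 25 lower in the vessel list. At 96 hpf slick oil had 3 of 10 higher and 4 lower for white blood cells and 4 of 27 higher and 12 lower for vessels, and source oil 0 of 8 and 5 of 27 higher with 0 and 4 lower. Of all names, 21.3%, 19.5% and 32.5% were higher and 17.4%, 21.3% and 27.6% lower under slick oil at 24, 48 and 96 hpf. Under source oil it was 14.2%, 9.22% and 28.3% higher and 12.2%, 10.1% and 19.7% lower. The 5 of 25 vessel names lower under slick oil at 24 and 48 hpf lie near these shares. The 15 of 45 neuron names lower under source oil at 24 hpf lie above theirs. Between slick and source oil the neuron list had 0 names called at each stage, and at 96 hpf the white blood cell list had 1 of 15 and the vessel list 3 of 27 lower, beside 2.39% of all names.

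The muscle list (miR-1, miR-133 and miR-206) had 5 of 30, 8 of 30 and 12 of 29 names higher and 5, 6 and 8 lower under slick oil at 24, 48 and 96 hpf. Under source oil it had 4 of 30, 9 of 30 and 11 of 29 higher and 6, 6 and 8 lower. Over all names, slick oil had 21.3%, 19.5% and 32.5% higher and 17.4%, 21.3% and 27.6% lower at the 3 stages. Source oil had 14.2%, 9.22% and 28.3% of all names higher and 12.2%, 10.1% and 19.7% lower. These shares also stand beside the liver and red blood cell lists that follow. The liver list (miR-122) had 0 of 3 names called under either oil at 24 and 48 hpf, and 3 of 6 higher and 3 lower under each at 96 hpf. Its summed level at 96 hpf was 550.0 to 650.1 under slick oil and 700.5 to 731.2 under source oil, against 869.1 to 952.2 in controls. The red blood cell list (miR-144 and miR-451) had 0 of 7 higher and 3 lower under each oil at 48 hpf, and at 96 hpf 4 of 7 higher with 3 lower under slick oil and 1 lower under source oil. Its summed level at 48 hpf was 190.3 to 211.1 under slick oil and 278.6 to 306.6 under source oil, against 341.9 to 455.5 in controls. At 24 hpf the red blood cell sum was 14.26 to 36.82, 29.48 to 58.09 and 47.18 to 58.42 in the same order. At 96 hpf it was 203.2 to 264.1, 252.6 to 276.1 and 229 to 265.6, where both oils overlapped the controls.

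Slick against source oil, miR-144 of red blood cells was lower by edgeR at 48 hpf (-0.62, adjusted p = 4.02e-06) and at 96 hpf (-1.11, adjusted p = 1.71e-09), and miR-122-5p of liver at 96 hpf (-0.28, adjusted p = 0.0128). In that contrast 2 of 7 red blood cell names were lower at 48 and at 96 hpf, and 3 of 6 liver names at 96 hpf. Of all names, 0.628% were lower at 48 hpf and 2.39% at 96 hpf. The red blood cell median was -0.45 at 48 hpf but 0.49 at 96 hpf, opposite in sign to miR-144. The liver median at 96 hpf was -0.08. Medians over all names were -0.01 at 48 hpf and 0.01 at 96 hpf. Of the muscle list 1 of 28 was higher at 24 hpf, and 0 of 29 and 0 of 28 were called at 48 and 96 hpf. Each miRNA number in these lists had counts in all 27 libraries except miR-451, which had counts in 26. These lists hold many near-copies, and their part in the values of miR-181 was not tested.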

How the data were processed

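In the deposited count tables, 1 per oil and stage with that stage's controls, each value is a whole number. It was read here as an unscaled count, which the column headers do not state. The sources used here do not give the aligner, the miRNA reference or the way of counting. Tables deposited by the authors give log2 fold changes and p-values from DESeq2, which the submitters' processing notes name without a version.

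Names were tested two-sided by quasi-likelihood in edgeR 4.0.16 (limma 3.58.1, R 4.3.3) after filterByExpr with min.count of 10 and TMM scaling, with Benjamini-Hochberg adjustment over all names and a threshold of 0.05. Oil and control were fitted per table. The 2 oils were compared among all 9 libraries of their stage, controls among 9 libraries, and effects by stage among 18. Fits of 9 libraries kept names with equal control counts in both tables. miR-181b (3 counts apart at 24 hpf) was therefore left out between oils at 24 hpf and in both control comparisons. miR-181a-3-3p was left out of these and between oils at 48 hpf. Fits by stage were joined without this rule. Normalised counts were TMM-scaled over 27 libraries.

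Members, lists and tests, and how miRNAs to name were picked, were set with earlier results of these data known: miR-181a-3p, called members, the most abundant name per letter and the arm pairs, plus the 5 other miRNAs closest to each arm of miR-181a. Alternatives were DESeq2 1.42.0, its size factors, library size alone, cyclic loess, no filter, a mean count of at least 50, merged identical names, a replicate block, the authors' deposited values and single libraries left out. Averaging the closest pair of libraries was added after seeing the data. Same-numbered libraries deviated together (r above 0.1 in each pair) for slick oil against control at 96 hpf alone, with r of 0.141, 0.176 and 0.15. Precision is limited by 3 libraries per group and by counting error of low names. No sequence was used here.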

Additional observations from a re-analysis of the deposited data

Results flagged for a closer look

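The effect of an oil against control differed between 24, 48 and 96 hpf by a test of the difference itself for 6 names under each oil, all outside the 3p arm. Under slick oil the edgeR adjusted p of the difference was 0.000172 for miR-181a, 0.000411 for miR-181a-5p, 0.00418 for miR-181b, 0.00438 for miR-181b-5p, 0.0113 for miR-181c-5p and 0.00982 for miR-181e. Under source oil it was 0.00418 for miR-181a, 0.00902 for miR-181a-5p, 0.0184 for miR-181b, 0.0292 for miR-181b-5p, 0.0378 for miR-181c-5p and 0.0417 for miR-181e. In these fits 41.4% of names under slick oil and 32.2% under source oil were called. The calls of miR-181a and miR-181a-5p under slick oil held in 27 of 27 alternatives, and those of miR-181a and miR-181a-5p under source oil in 4 and 1 of 27. Under slick oil the calls of miR-181b and miR-181b-5p held in 15 of 27 each and those of miR-181c-5p and miR-181e in 9 of 27 each, and under source oil each of these 4 names held in 1 of 27. Scaling by library size alone moved the median effect of 96 less 24 hpf over all names by 0.23 under slick oil and 0.29 under source oil, and DESeq2 size factors moved it by 0.12 under source oil. Under source oil miR-181a lay at -0.31 beside a median of -0.01 over all names with TMM, and at -0.02 beside a median of 0.27 with library size alone.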

How the results depend on the processing

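Of names outside the 3p arm, 2 were called for slick oil at 24 hpf, and 0 with the closest libraries averaged (2 to 3 on leaving out a library). For slick oil at 48 hpf 5 were called, 1 with DESeq2, cyclic loess and the authors' table, and 3 with DESeq2 size factors, library size alone, no filter, a mean count of at least 50 and averaged libraries (1 to 5 on leaving out a library, with 1 without control replicate 4 or slick replicate 4, and 3 without slick replicate 5). For source oil at 48 hpf 1 was called (1 to 2, with 2 without control replicate 6). For slick oil at 96 hpf 3 were called, 5 with library size alone and 1 with cyclic loess. For source oil at 96 hpf 5 were called, 3 with DESeq2, DESeq2 size factors, cyclic loess, no filter, merged names and the authors' table, and 2 with a mean count of at least 50 (3 to 5 on leaving out a library, with 3 without control replicate 7, 8 or 9 or source replicate 8 or 9). In controls from 48 to 96 hpf 0 were called, and 1 without control replicate 5 or 8. By stage, 6 were called under slick oil, 2 with DESeq2, library size alone, cyclic loess, a mean count of at least 50, merged names and averaged libraries (2 to 6 on leaving out a library). Under source oil 6 were called by stage, 0 with those settings and with DESeq2 size factors, and 1 with no filter (0 to 1 on leaving out a library). The replicate block left the counts at 2, 5 and 3 for slick oil and 0, 1 and 5 for source oil at 24, 48 and 96 hpf and changed no other count. With cyclic loess miR-181b-5p (0.16) and miR-181e (0.16) turned to higher under source oil at 96 hpf. Scaling also split calls over all names differently: with library size alone 107 were higher and 140 lower under slick oil at 24 hpf (TMM 131 and 107), and 65 higher and 91 lower under source oil at that stage (TMM 85 and 73). By stage that scaling gave 148 higher and 69 lower under slick oil (TMM 100 and 186) and 108 and 51 under source oil (TMM 53 and 174). The effect of slick oil on miR-181b-5p at 96 less 24 hpf was -0.17 with TMM and 0.07 with library size alone. On leaving out a library, the arm balance of miR-181a-5p and miR-181a-3p for slick oil less control ran from -1.04 to -0.73 at 24 hpf. It ran from -0.44 to -0.33 at 48 hpf and from -0.73 to -0.43 at 96 hpf. With 3 libraries per group, leaving out 1 cannot move the difference by more than the spread within groups, so no conclusion is drawn from these ranges. Where no value shows the cause of a change, it was not tested. Names under 20 counts, such as miR-181d, are limited by depth.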
